A study of Mus musculus with 23 samples.

Results

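The transcriptional co-activators YAP and TAZ, the TEAD factors that bring them to DNA and a set of their target genes were examined in fetal thymic epithelial cells (TECs). The 10 genes, chosen by name, were Yap1, Wwtr1 (which encodes TAZ), Tead1, Tead2, Tead3, Cyr61 (also called Ccn1), Ctgf (also called Ccn2), Ankrd1, Amotl2 and Lats2. Each matched 1 of the 50123 genes of the deposited count table, and all 10 were among the 19140 genes that passed the filter on low counts.

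On the GRCm38 annotation the co-activator genes were Yap1 (chr9:7931999-8004596, minus strand) and Wwtr1 (chr3:57455649-57575910, minus strand). The TEAD genes were Tead1 (chr7:112679318-112906807, plus strand), Tead2 (chr7:45215753-45233644, plus strand) and Tead3 (chr17:28331671-28350805, minus strand). The target genes were Cyr61 (chr3:145646976-145649981, minus strand), Ctgf (chr10:24595442-24598683, plus strand) and Ankrd1 (chr19:36111965-36119844, minus strand), and the targets that feed back on the pathway were Amotl2 (chr9:102716672-102733418, plus strand) and Lats2 (chr14:57642077-57758388, minus strand).

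In the Hippo pathway, a kinase cascade ending in LATS1 and LATS2 phosphorylates YAP and TAZ and keeps them out of the nucleus. When the cascade is off, YAP and TAZ enter the nucleus, bind TEAD proteins and switch on genes such as Cyr61, Ctgf and Ankrd1. Amotl2 and Lats2 are targets too, and their products restrain YAP and TAZ, so that they act as feedback inhibitors. The transcript level of a co-activator does not measure its nuclear activity.

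RNA was measured in 23 libraries of 100 sorted TECs each, in 7 groups that differ in embryonic day (E), in surface PLET1, a protein of the thymic founder epithelium, and in Notch signalling. PLET1+ TECs at E12.5 and at E14.5, and PLET1- TECs at E14.5, came from 3 control and 3 Rbpj cKO samples per population, and 5 NICD embryos gave E14.5 PLET1+ TECs only. The cKO embryos were Foxn1Cre RbpjFL/FL and lack the DNA-binding partner of the Notch receptors in TECs, where the Foxn1 promoter drives the Cre, as it also does in skin epithelium. The NICD embryos were Foxn1Cre Rosa26FL-STOP-FL-NICD-IRES-EGFP and express the active intracellular part of Notch in the same cells. All are labelled C57BL/6. Controls are labelled wild type but came from the same Foxn1Cre RbpjFL/+ by RbpjFL/FL cross as the cKO embryos, so that each carried at least 1 floxed Rbpj allele. The Rbpj libraries of each age came from 2 batches, whereas the NICD embryos were 1 litter bred and sorted in another laboratory and had no controls of their own. Age and batch, and NICD and laboratory, therefore cannot be told apart, and in sorted pools fewer cells of a type and less RNA per cell cannot be told apart either.

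Libraries held 20053241 to 92699969 counts, and NICD libraries, at 63587152 or more, were deeper than most others. Of the TEC markers, Epcam was at 368 to 945 CPM (counts scaled to library size with TMM factors) and Krt8 at 682 to 4792 CPM in every library. Plet1 was at 10.2 to 65.1 CPM in the PLET1+ libraries and 0 to 6.30 CPM in the PLET1- libraries. The endothelial marker Cdh5 did not exceed 0.0742 CPM and the T cell marker Cd3e 0.0948 CPM, but the blood cell marker Ptprc reached 13.4 CPM. Together 5 endothelial markers summed to 0.0631 to 20.5 CPM (median 0.791) and 7 haematopoietic markers to 0.0565 to 59.1 CPM (median 14.6). Rbpj was lower in all cKO libraries than in all controls in both E14.5 populations, as 4.57% of all genes were in E14.5 PLET1+ TECs. For E14.5 PLET1- TECs this share is not given, and the margin there was 8.28 against 9.49 CPM. At E12.5 the second cKO library, at 16.2 CPM, exceeded the first control, at 15.1 CPM. The log2 fold changes of Rbpj were -1.82 (SE 1.04) in E14.5 PLET1+, -1.50 (SE 1.03) in E14.5 PLET1- and -1.54 (SE 1.16) in E12.5 TECs. The edgeR test used below called none of them, so even the deleted gene was not called.

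TEAD proteins bind the motif GGAATG. The promoters of Cyr61, Ankrd1 and Amotl2 are printed because, of the target genes for which RefSeq (GRCm38.p6) gave a window, these 3 hold the motif before the start site. Each run is the 250 bases before the transcription start, 5′ to 3′, with capitals marking the motif or its reverse complement CATTCC.
Cyr61 promoter, chr3:145649986-145650235, minus strand: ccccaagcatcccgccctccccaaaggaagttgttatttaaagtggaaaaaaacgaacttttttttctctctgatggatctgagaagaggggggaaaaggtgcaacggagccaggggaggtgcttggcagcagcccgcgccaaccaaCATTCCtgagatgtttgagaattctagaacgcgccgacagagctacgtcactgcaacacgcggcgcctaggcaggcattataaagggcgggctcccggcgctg
Ankrd1 promoter, chr19:36119845-36120094, minus strand: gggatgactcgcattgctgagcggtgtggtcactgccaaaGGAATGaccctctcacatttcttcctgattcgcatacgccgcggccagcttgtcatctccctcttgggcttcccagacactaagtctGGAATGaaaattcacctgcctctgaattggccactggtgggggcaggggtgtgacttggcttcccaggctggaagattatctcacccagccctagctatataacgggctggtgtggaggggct
Amotl2 promoter, chr9:102717554-102717803, plus strand: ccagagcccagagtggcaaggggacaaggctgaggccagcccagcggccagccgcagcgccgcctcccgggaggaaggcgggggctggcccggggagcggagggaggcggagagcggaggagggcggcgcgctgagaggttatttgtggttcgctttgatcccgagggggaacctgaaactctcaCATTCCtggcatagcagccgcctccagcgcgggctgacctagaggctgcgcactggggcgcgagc
The motif begins 103 bases before the start in Cyr61, 210 and 123 bases before it in Ankrd1 and 65 bases before it in Amotl2. Windows of 300 bases, which run 50 bases past the start, were found for 8 of the 10 genes, all but Tead1 and Ctgf. The motif was present on either strand in 7 of the 8, all but Tead2, against 16.6% of 27025 genes with a window, and in 14.7% of all 32851 windows. The Notch partner RBPJ binds the core TGGGAA, which occurred on either strand in Tead2, Tead3 and Ankrd1, against 28.3% of all genes, and never overlapped a TEAD motif in these windows. Such matches describe letters in a window and do not show binding.

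Compared per kilobase of exon, Cyr61 was by far the most abundant of the 10 transcripts. Its median over 23 libraries was 166 CPM per kb, and in each library it exceeded Ctgf, Ankrd1, Amotl2 and Lats2. The median ratio of Cyr61 to Amotl2 within a library was 34.7, with a range of 9.20 to 540. Yap1 and Wwtr1 were close to each other, with medians of 4.91 and 3.71 CPM per kb, and Yap1 was the higher in 16 of 23 libraries. Among the TEAD genes the medians were 5.20 for Tead2, 2.13 for Tead1 and 0.749 CPM per kb for Tead3. Tead2 exceeded Tead1 in 21 of 23 libraries and Tead3 in all 23. Tead4 had more than 3 counts in 6 of 23 libraries, all of them Rbpj cKO, and did not exceed 1.18 CPM. It held 17 to 36 counts in E14.5 PLET1+ cKO libraries and 0 in E14.5 PLET1+ controls. Counts were 0 to 32 in E12.5 cKO and 0 to 50 in E14.5 PLET1- cKO libraries. The share of all genes with such a pattern is not given, and edgeR called no cKO difference of Tead4.

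**Figure D1:**
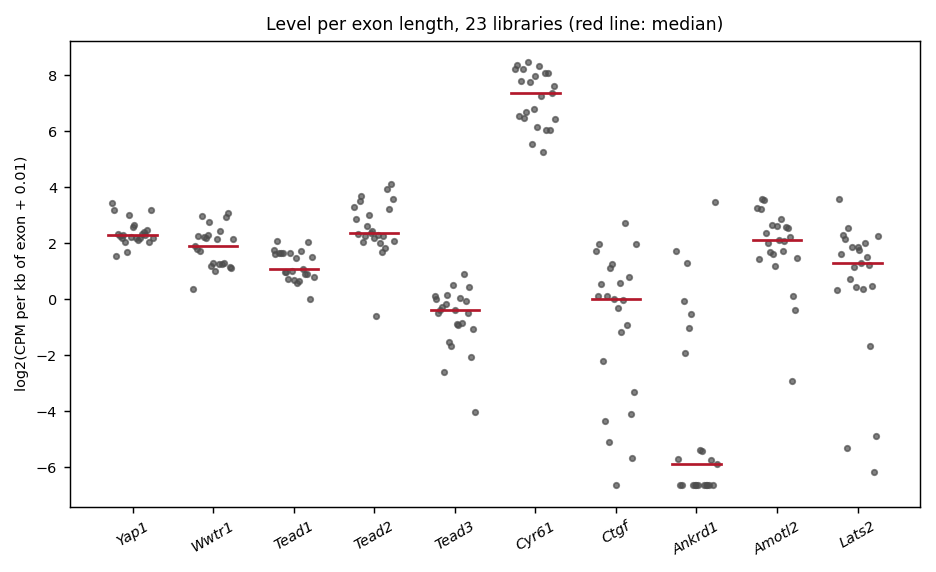
Level of each gene in the 23 libraries, as log2 of CPM per kb of exon plus 0.01, with 1 point per library and a red line at the median. Cyr61 lies above the other target genes in every library, and most Ankrd1 points lie at the bottom of the scale.

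The genes also differed in how far they varied. Yap1 spanned 26.9 to 100.4 CPM, a 3.73-fold range over all libraries, Tead1 a 4.30-fold range and Wwtr1 a 6.50-fold range. Amotl2 spanned a 98.9-fold range, and Lats2 ran from 2 counts (0.0276 CPM) to 86.6 CPM. Ankrd1, which encodes a stretch-responsive ankyrin repeat protein, had more than 3 counts in only 7 of 23 libraries and 0 counts in 11. When the 7 groups were ordered by mean level, the libraries of neighbouring groups overlapped in all 60 pairs of neighbours. Groups next to each other in mean overlap most readily. The share over all genes was not computed, so no conclusion is drawn from this count. Groups further apart in the order did not all overlap, as Tead1, Wwtr1 and Ankrd1 show below.

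**Figure D2:**
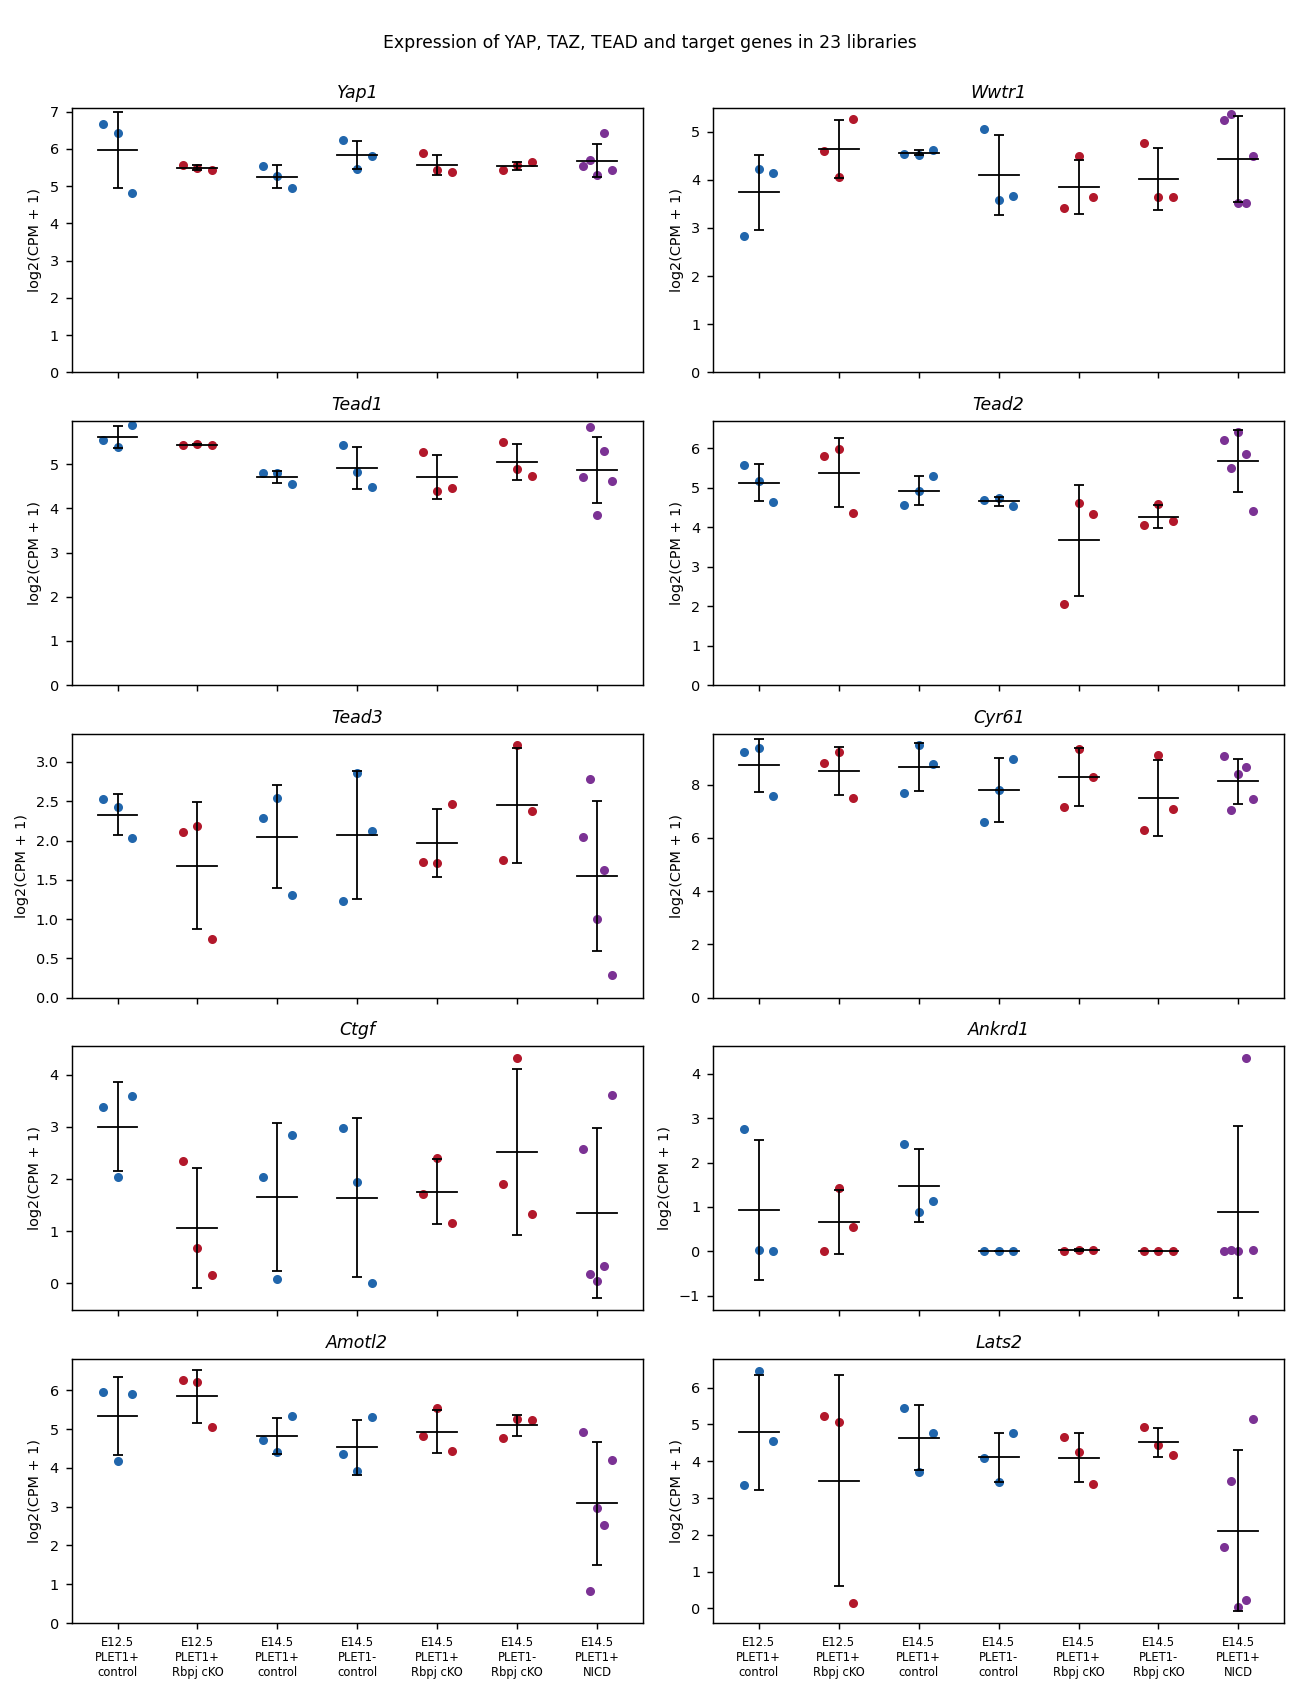
Expression as log2(CPM + 1) in each library (points) of the 7 groups, with the mean (long bar) and SD (whiskers). Blue marks controls, red Rbpj cKO and purple NICD, and within most panels the points of all groups overlap.

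None of the 10 genes was called in any of the 7 comparisons between groups at an adjusted p of at most 0.05 (quasi-likelihood test of edgeR, adjusted after Benjamini and Hochberg over 19140 genes). The share of all genes called was 0.684% for NICD against E14.5 PLET1+ controls and 0.967% for E14.5 against E12.5 controls. It was 2.81% for E14.5 NICD against E12.5 controls and 0.0261% for Rbpj cKO against control at E12.5. In the other 3 comparisons, PLET1+ against PLET1- controls and Rbpj cKO against control in E14.5 PLET1+ and in E14.5 PLET1- TECs, 0% of genes were called. At an unadjusted p under 0.05 these 3 held 550, 395 and 447 genes, and DESeq2 called 153, 100 and 160 while limma-voom called 1, 0 and 0. Across the 7 comparisons, Ankrd1 (PLET1+ against PLET1-) and Amotl2 (NICD against E12.5) were the only members with an unadjusted p under 0.05. Of all genes, 2.87% and 17.5% had one in these 2 comparisons. In NICD against E12.5 controls DESeq2 called 1 member, Amotl2, among 2285 genes, and limma-voom called 0 members among 1500 genes.

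Yap1 and Wwtr1 are the co-activators on which the pathway converges. Yap1 was at 100.4, 84.9 and 26.9 CPM in E12.5 controls, 45.6, 37.9 and 29.7 CPM in E14.5 PLET1+ controls and 73.8, 43.4 and 55.0 CPM in E14.5 PLET1- controls (replicates 1, 2 and 3). In cKO TECs it was at 46.6, 43.8 and 42.2 CPM at E12.5, 57.8, 42.3 and 40.6 CPM in E14.5 PLET1+ and 42.1, 46.2 and 49.1 CPM in E14.5 PLET1- cells. The 5 NICD libraries were at 45.4, 51.4, 38.2, 84.4 and 42.3 CPM. The first 2 E12.5 controls were the highest libraries of the series for Yap1, but the third was the lowest of all 23. From E12.5 to E14.5 the log2 fold change was -0.77 (SE 0.38, 95% interval -1.57 to 0.02, adjusted p = 0.399, edgeR), and that of NICD against E14.5 controls 0.48 (SE 0.34, interval -0.23 to 1.20, adjusted p = 0.541). PLET1+ against PLET1- controls gave -0.62 (SE 0.37, adjusted p = 1).

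Wwtr1 was at 6.15, 17.7 and 16.7 CPM in E12.5 controls, 22.4, 21.9 and 23.6 CPM in E14.5 PLET1+ controls and 32.3, 10.9 and 11.6 CPM in PLET1- controls. It was at 23.1, 15.7 and 37.6 CPM in E12.5 cKO, 9.64, 21.4 and 11.5 CPM in E14.5 PLET1+ cKO and 26.1, 11.5 and 11.6 CPM in E14.5 PLET1- cKO TECs. NICD libraries split, with 37.0, 40.0 and 21.5 CPM in replicates 1, 2 and 5 and 10.5 CPM in replicates 3 and 4. The 3 E14.5 PLET1+ controls lay above all E12.5 controls, a separation that 11.5% of all genes showed in this direction, and the log2 fold change was 0.78 (SE 0.64, interval -0.56 to 2.12, adjusted p = 0.644). They also lay above all 3 E14.5 PLET1+ cKO libraries, in both batches, as 4.57% of all genes did (log2 fold change -0.71, SE 0.64, adjusted p = 1). The margin in that second case was 21.9 against 21.4 CPM, and the groups overlapped with RLE factors, with scaling to housekeeping genes and with no factor. At E12.5 the difference between cKO and control was 0.86 (SE 0.64, adjusted p = 1), and the interaction between ages was -1.57 (SE 0.90, interval -3.46 to 0.33, adjusted p = 1).

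Tead1, Tead2 and Tead3 encode the DNA-binding partners. Tead1 was at 46.1, 41.3 and 57.9 CPM in E12.5 controls, 42.4, 43.1 and 42.2 CPM in E12.5 cKO, 26.8, 26.8 and 22.3 CPM in E14.5 PLET1+ controls and 37.9, 19.97 and 21.1 CPM in E14.5 PLET1+ cKO TECs. All 6 E12.5 libraries thus lay above all 6 E14.5 PLET1+ libraries of the Rbpj cross, a separation whose share over all genes was not computed. Between the control libraries alone, a less strict separation, 8.82% of all genes were lower at E14.5 without overlap. NICD libraries spread over both ages, at 25.4, 56.3, 13.5, 38.6 and 23.5 CPM. From E12.5 to E14.5 the log2 fold change of Tead1 was -0.93 (SE 0.44, interval -1.86 to 0.01, adjusted p = 0.389) in controls and -0.82 (adjusted p = 0.134) over controls and cKO together, a contrast added after the values were seen. PLET1- libraries, at 42.2, 27.3 and 21.5 CPM in controls and 44.6, 28.9 and 25.5 CPM in cKO, overlapped both ages. For NICD against E14.5 controls the difference was 0.32 (SE 0.40, adjusted p = 0.793).

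Tead2 had its highest mean in NICD TECs, with 72.9, 44.3, 84.1, 57.1 and 20.2 CPM, of which 4 exceeded all E14.5 PLET1+ controls, at 22.7, 29.3 and 38.1 CPM, and the fifth was below them. For NICD against control this gave a log2 fold change of 0.91 (SE 0.53, interval -0.20 to 2.01, adjusted p = 0.431). The E12.5 libraries spanned 19.6 to 61.6 CPM, with 46.6, 34.7 and 23.9 CPM in controls and 55.0, 61.6 and 19.6 CPM in cKO. At E14.5 the PLET1+ cKO libraries were at 3.14, 23.4 and 19.2 CPM, the PLET1- controls at 24.9, 25.8 and 22.0 CPM and the PLET1- cKO at 15.5, 23.04 and 16.9 CPM. The first PLET1+ cKO library, the lowest of the series for Tead2, was also the lowest for Rbpj. The PLET1+ cKO difference was -0.98 (SE 0.57, interval -2.18 to 0.23, adjusted p = 1) and its interaction with age -1.23 (SE 0.81, adjusted p = 1). Tead3 stayed between 0.227 and 8.29 CPM in all libraries, with overlap in every comparison and a log2 fold change of -0.43 (SE 0.93, adjusted p = 0.909) for NICD against E14.5 controls.

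**Figure D3:**
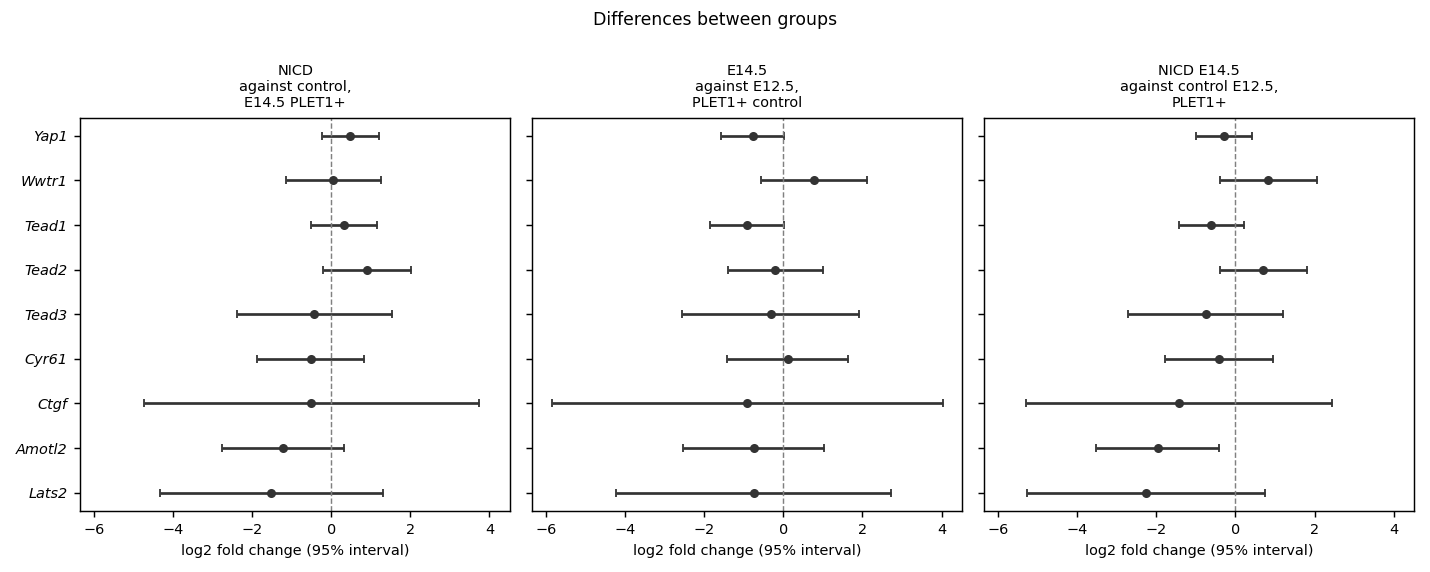
Log2 fold changes with 95% intervals (edgeR) for 9 genes in 3 comparisons, with a dashed line at 0. Ankrd1 is left out because some of its groups hold almost no counts, and only the interval of Amotl2 in NICD against E12.5 controls, -3.53 to -0.41, leaves out 0.

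Cyr61 and Ctgf encode secreted matricellular proteins and are the most used readouts of YAP and TAZ. Cyr61 was at 597, 670 and 188 CPM in E12.5 controls, 206, 720 and 438 CPM in E14.5 PLET1+ controls and 95.1, 223 and 503 CPM in PLET1- controls. It was at 454, 602 and 178 CPM in E12.5 cKO, 144, 655 and 312 CPM in E14.5 PLET1+ cKO and 78.2, 548 and 135 CPM in PLET1- cKO TECs. NICD libraries were at 541, 132, 335, 400 and 174 CPM. In each group the highest library exceeded the lowest by 3.38-fold or more, and no comparison separated its libraries. The log2 fold change was 0.11 (SE 0.73, interval -1.43 to 1.64, adjusted p = 1) from E12.5 to E14.5 in controls, -0.53 (SE 0.64, interval -1.88 to 0.83, adjusted p = 0.786) for NICD against E14.5 controls and 0.76 (SE 0.75, adjusted p = 1) for PLET1+ against PLET1- controls. In E14.5 PLET1+ cKO against control it was -0.29 (SE 0.73, adjusted p = 1). Libraries with the same replicate number deviated together at E14.5, and within these pairs Cyr61 was lower in the PLET1+ cKO in 3 of 3, with differences of -0.52, -0.14 and -0.49 on the log2(CPM + 1) scale. It was lower in the PLET1- cKO in 2 of 3 pairs, and higher in PLET1+ than in PLET1- controls in 2 of 3. With the replicate number as a block, the PLET1+ cKO difference was -0.38 (SE 0.50, interval -1.44 to 0.68, adjusted p = 1).

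The spread of Cyr61 was set beside that of 14 immediate early genes, such as Fos and Egr1, which respond within minutes to serum, stress or dissociation. Their sum was 3041, 7600 and 5550 CPM in E14.5 PLET1+ controls, where the highest and lowest libraries were also those for Cyr61. In 5 of the 7 groups, all but E12.5 controls and NICD, the libraries stood in the same order for Cyr61 and for this sum. Libraries with the same replicate number deviated together at E14.5, so the groups of the E14.5 Rbpj cross are not separate matches. The share of all genes with such an order was not computed. Of the other genes, Tead2 did so in 3 groups, Wwtr1 and Tead3 in 2, Tead1, Amotl2 and Lats2 in 1 and Yap1 and Ctgf in 0. Ankrd1 did so in 2, both with at most 1 count per library. The likeness of Cyr61 was noticed after the values were seen, and its part in the levels of Cyr61 was not tested. Between groups, NICD libraries summed to 2218 to 3770 CPM and E14.5 PLET1+ controls to 3041 to 7600 CPM, and of the 14 genes 1 was called lower (Fosb). E12.5 controls summed to 2403 to 2956 CPM, below all E14.5 PLET1+ controls, and 2 genes were called higher at E14.5 (Ier3 and Zfp36), with a median log2 fold change of 0.73 over the 14.

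**Figure D4:**
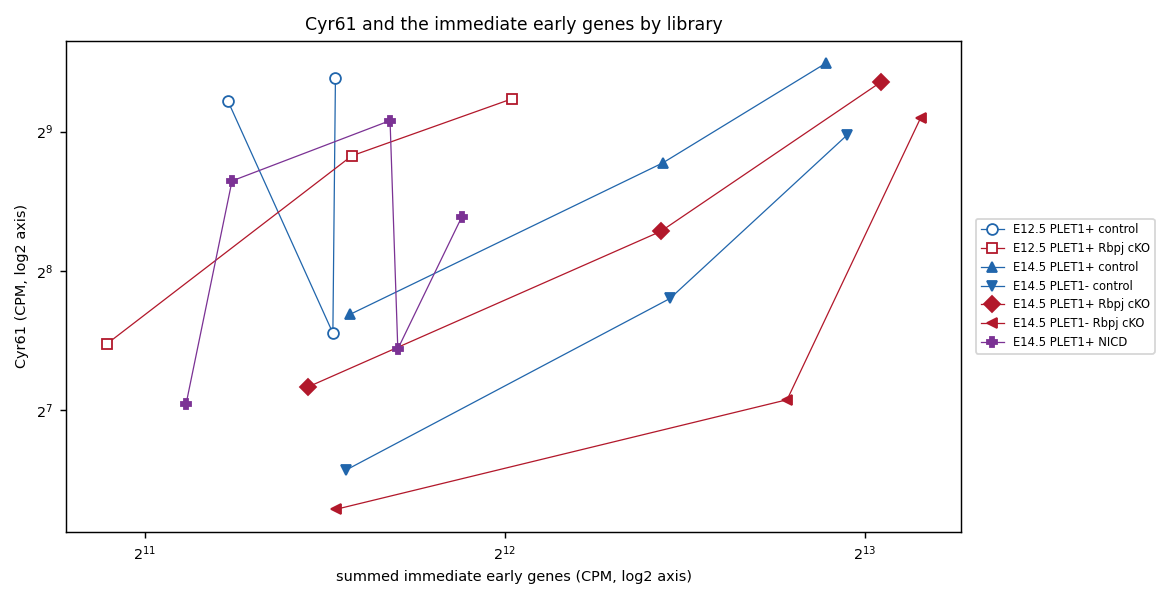
Cyr61 against the summed CPM of 14 immediate early genes, both on log2 axes, with 1 point per library and lines joining the libraries of a group in order of the sum. The lines climb throughout in the 4 groups of the E14.5 Rbpj cross and in E12.5 cKO, and turn back in E12.5 controls and NICD.

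Ctgf was low and erratic. It ranged from 0 counts, in the third PLET1- control, to 18.9 CPM, in the second PLET1- cKO library, and 19 of 23 libraries had more than 3 counts. NICD libraries held 333, 9, 2, 19 and 894 counts, and E14.5 PLET1+ controls 85, 3 and 262, so that the groups overlapped. The log2 fold change of NICD against E14.5 controls was -0.51 with an SE of 2.01 (interval -4.74 to 3.73, adjusted p = 0.97). In E12.5 cKO against control it was -2.72 (SE 2.40, adjusted p = 1), on 121, 13 and 2 counts in the cKO and 227, 189 and 599 in the controls.

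Ankrd1 was at or near 0 in most libraries, and the E14.5 PLET1+ controls were the only group with over 3 counts in each library. All 6 PLET1- libraries held 0 counts, and the E14.5 PLET1+ cKO libraries held 0, 1 and 1, whereas the E14.5 PLET1+ controls held 119, 47 and 51 (4.33, 0.853 and 1.21 CPM). Against a floor of 3 counts over the group, the mean of those controls, 2.13 ± 1.91 CPM (SD, n = 3), was at least 86.3-fold higher than PLET1- controls and at least 82.1-fold higher than PLET1+ cKO. Without replicate 1 the bounds were 41.8-fold and 39.8-fold. These bounds set means against the floor and leave out the spread between libraries. Control libraries lay above all PLET1- controls, a separation that 5.03% of all genes showed, and above all PLET1+ cKO libraries, which 4.57% showed. Neither difference was called (adjusted p = 1, edgeR). The log2 intervals were 0.09 to 19.0 for PLET1+ against PLET1- controls and -15.2 to 1.75 for PLET1+ cKO against control. E12.5 controls held 139, 1 and 0 counts, E12.5 cKO 0, 37 and 8, and NICD 0, 1, 0, 1425 and 1, so that a single library carried most of the counts in E12.5 controls and in NICD.

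Amotl2 and Lats2 encode a junctional scaffold and a kinase that hold YAP and TAZ back. Amotl2 was at 60.8, 17.2 and 58.6 CPM in E12.5 controls, 25.5, 20.2 and 39.3 CPM in E14.5 PLET1+ controls and 29.2, 0.763, 6.84, 4.78 and 17.5 CPM in NICD. In the other groups it was at 14.2 to 75.5 CPM. Of the NICD libraries 3 were the lowest of the whole series, the first lay among the controls of both ages and the fifth just below the E14.5 controls. Against E14.5 controls the log2 fold change was -1.22 (SE 0.73, interval -2.77 to 0.32, adjusted p = 0.449), and against E12.5 controls -1.97 (SE 0.74, interval -3.53 to -0.41, adjusted p = 0.178). DESeq2 called the second, at -1.99 (adjusted p = 0.0454), and none of the other 16 alternatives did. Between E14.5 and E12.5 controls the difference was -0.75 (SE 0.85, adjusted p = 0.768).

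Lats2 was at 9.15, 86.6 and 22.6 CPM in E12.5 controls, 42.5, 12.1 and 26.4 CPM in E14.5 PLET1+ controls and 2.21, 10.1, 0.0276, 0.177 and 34.7 CPM in NICD. Of the 5 NICD libraries 4 lay below all E14.5 PLET1+ controls, and the fifth lay among them. The log2 fold change was -1.52 (SE 1.34, interval -4.33 to 1.30, adjusted p = 0.659) against E14.5 controls and -2.27 (SE 1.43, adjusted p = 0.444) against E12.5 controls. E12.5 cKO libraries were at 36.1, 32.2 and 0.113 CPM, and all other Rbpj-cross libraries at E14.5 lay between 9.34 and 29.5 CPM.

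In NICD against E14.5 controls, 5 of the 10 genes had a higher and 5 a lower fitted level, with a median log2 fold change of -0.19 against 0.035 over all genes tested. The higher genes include Ankrd1, with over 1 count in a single NICD library, and Wwtr1, whose sign changed without NICD replicate 1 or 2. The summed level of 9 mesenchymal markers was 23.2 to 426 CPM in NICD and 2.37 to 24.4 CPM in those controls, where Pdgfrb was at 0, and its part in these values was not tested. From E12.5 to E14.5 in controls, 3 were higher and 7 lower, with a median of -0.54 against 0.19 over all genes. The 3 parathyroid markers, among them Pth, summed to 1287 to 8795 CPM at E12.5 and 2.07 to 388 CPM at E14.5, and their part was not tested. For PLET1+ against PLET1- controls, 7 were higher and 3 lower, with a median of 0.33 against 0.017. PLET1- controls held mesenchymal markers at 5.59 to 1181 CPM and parathyroid markers at 2.03 to 1448 CPM, with a median of 885 CPM for the latter. In E14.5 PLET1+ controls the parathyroid sum was 2.07 to 388 CPM, with a median of 3.46 CPM. The part of these markers was not tested. In Rbpj cKO against control the medians were -0.22 at E12.5, -0.48 in E14.5 PLET1+ and 0.053 in E14.5 PLET1- TECs, against 0, -0.022 and 0.020 over all genes. Comparisons that use the 3 E14.5 PLET1+ controls, or the 3 E12.5 controls, share those libraries.

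Other genes of the pathway were read from a list of 33 Hippo genes, of which 32 were tested, and a list of 23 further YAP and TAZ targets, of which 21 were tested. In NICD against E14.5 controls edgeR called 0 of each, with 8 and 6 at an unadjusted p under 0.05, where 15.7% of all genes were, and medians of 0.18 and -0.19. The lowest adjusted p values in the first list belonged to Rassf1, a Hippo scaffold (log2 fold change -1.72, SE 0.40, adjusted p = 0.0558), and to Ajuba, a LATS inhibitor (-1.41, SE 0.33, adjusted p = 0.0634). Rassf1 was at 36.7, 40.1 and 56.7 CPM in controls and 22.96, 8.51, 13.7, 9.24 and 12.1 CPM in NICD, and Ajuba at 58.2, 35.7 and 50.1 CPM and 14.8, 10.1, 15.1, 26.6 and 24.2 CPM. For both genes the libraries of the groups did not overlap, but the share of all genes that did so in this comparison is not given. Both were named for their small p, so no conclusion is drawn from this separation. Wwc1, which encodes the upstream regulator KIBRA, gave 2.004 (SE 0.57, adjusted p = 0.111). In the second list F3, tissue factor, gave -2.99 (SE 0.87, adjusted p = 0.119), Tagln, an actin-binding protein, -4.57 (SE 1.33, adjusted p = 0.12) and Ccdc80, a matrix protein, 1.19 (SE 0.35, adjusted p = 0.124). DESeq2 and limma-voom, which called 1236 and 998 of 19140 genes here, each called all 6 of these genes. The 6 were named for their small p on the same counts, so these calls are not independent support. Nt5e, an ectonucleotidase, held 1, 106 and 56 counts in controls and 2 in all NICD libraries together. Vgll2, a TEAD co-factor, had 30 counts in 1 control and 0 in the other libraries of both groups.

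Against E12.5 controls, NICD TECs differed in 4 of the 32 Hippo genes and 6 of the 21 targets, with Ajuba in both lists, where 2.81% of all genes were called. Parathyroid markers summed to 1287 to 8795 CPM in E12.5 controls and 0.273 to 10.1 CPM in NICD, mesenchymal markers to 11.7 to 71.6 and 23.2 to 426 CPM, and their part was not tested. Ccdc80 rose by 1.92 on the log2 scale (SE 0.37, adjusted p = 0.00663) and Ccn4, a relative of Cyr61 and Ctgf, by 4.72 (SE 0.87, adjusted p = 0.00504). Ccn4 was the only list gene called between E14.5 and E12.5 controls, with 0.540, 0.801 and 1.71 CPM at E12.5 and 27.6, 16.0 and 19.5 CPM at E14.5 (log2 fold change 4.49, SE 0.89, adjusted p = 0.0165). E12.5 cKO libraries held it at 11.5, 16.1 and 17.0 CPM. Ajuba fell by 1.44 (SE 0.33, adjusted p = 0.0246), Fat1, a giant cadherin upstream of Hippo, by 1.26 (SE 0.33, adjusted p = 0.049) and Rbms3, an RNA-binding protein, by 1.10 (SE 0.22, adjusted p = 0.0089). F3 fell by 3.38 (SE 0.88, adjusted p = 0.0464) and Tagln by 6.35 (SE 1.42, adjusted p = 0.0195), from 7.98, 11.4 and 6.96 CPM to at most 0.275 CPM. Vgll2 was at 0.208, 9.78 and 16.8 CPM in E12.5 controls and at 0 counts in all NICD libraries. By means against the floor, the NICD level was at least 1065-fold lower, or at least 596-fold without control replicate 3. The fit gave a log2 interval of -16.8 to -6.00 (adjusted p = 0.0266, edgeR). Of these genes Fat1, Rbms3 and Tagln were also lower in E14.5 controls than in E12.5 controls without overlap, as 8.82% of all genes were, and none was called. Fat1 was at 82.4, 55.2 and 51.8 against 155, 168 and 181 CPM, with a log2 fold change of -1.42 (SE 0.39, adjusted p = 0.109, edgeR). DESeq2 called this difference of Fat1, at -1.41 (adjusted p = 0.00919). Rbms3 was at 71.3, 98.8 and 100.7 against 178, 133 and 199 CPM (-0.92, SE 0.25, adjusted p = 0.109), and Tagln at 1.05, 2.23 and 4.67 against its E12.5 values (-1.78, SE 1.47, adjusted p = 0.648). The 6 targets called moved both ways, with 2 higher and 4 lower. In the Rbpj cKO comparisons edgeR called 0 genes of either list, with at most 2 at an unadjusted p under 0.05. Of all genes, 2.06% to 3.79% were under it in those comparisons.

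Several of these calls passed the threshold only with every library in the fit, while most fold changes moved little. Ccn4 between ages lost its call without E12.5 control replicate 1, 2 or 3 (log2 fold change 4.14, 4.39 and 4.96, adjusted p = 0.106, 0.0898 and 0.052, edgeR), and its log2 fold change was 1.52 (adjusted p = 0.118) over controls and cKO together. In NICD against E12.5 controls, Ajuba lost its call without control replicate 1 (-1.02, adjusted p = 0.263), control replicate 2 (-1.39, adjusted p = 0.0709) or NICD replicate 3 (-1.38, adjusted p = 0.0517). Rbms3 lost it without control replicate 1 or 3 (-1.03 and -0.93, adjusted p = 0.0565 and 0.058) and Tagln without control replicate 2 (-6.13, adjusted p = 0.051). F3 lost it without any single control or without NICD replicate 1, 2, 3 or 5 (-3.62 to -3.11, adjusted p from 0.0567 to 0.119), and Fat1 without any single control or without NICD replicate 2, 3 or 5 (-1.36 to -1.17, adjusted p from 0.0563 to 0.137). Vgll2 lost it without control replicate 2 or 3 (adjusted p = 0.077 and 0.0628, edgeR). It also lost it with the replicate block (adjusted p = 0.0952) and with only the groups compared (adjusted p = 0.14). Ccdc80 and Ccn4 stayed called without each library in turn.

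The Rbpj cKO effect did not differ in a called way between ages or between PLET1+ and PLET1- TECs for any of the 10 genes in the interaction tests. None of these had an unadjusted p under 0.05, where 3.15% and 2.62% of all genes were. Across the 23 libraries, the gene most like Cyr61 on the log2(CPM + 1) scale was Etv5 (Pearson r = 0.723), followed by Palb2 (0.721) and Ivns1abp (0.714). For Yap1 these were Eif4g3 (0.725), Gm44949 (0.691) and Zfp825 (0.691). The most alike gene was Cers4 for Wwtr1 (0.851), Tnrc6c for Tead1 (0.845), Ercc8 for Tead2 (0.843) and Epha1 for Tead3 (0.781). It was Tnk2 for Ctgf (0.670), Hsf2bp for Ankrd1 (0.913), Arhgap29 for Amotl2 (0.839) and Zfp788 for Lats2 (0.857). Among the 10 genes themselves, the highest correlation was 0.50, between Tead2 and Cyr61, and Ctgf and Lats2 reached 0.44. These points share group, batch and depth and are given as a description.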

How the data were processed

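Per the labels and file headers, the authors trimmed reads with Trimmomatic 0.32, aligned them with STAR 2.5.1a to GRCm38 and counted read pairs over GENCODE M12 exons with featureCounts, with no strand option set in the header. The deposited values are counts per gene, not normalized. Counts were used as deposited for 23 libraries, grouped by their labels. TMM factors, filterByExpr and a quasi-likelihood fit (edgeR 4.0.16, R 4.3.3) with 7 group means and 2 batch terms gave two-sided tests, adjusted by Benjamini-Hochberg over 19140 genes in each of 7 comparisons and 2 interactions. Called genes had an adjusted p of at most 0.05, and intervals are 95%. Levels are CPM with TMM factors, and levels between genes are CPM per kb of exon. Depth was 20053241 to 92699969 counts per library, and counts were lowest for Ankrd1, Ctgf and Tead3. A floor of 3 counts was used for groups near 0.

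The 10 genes, the lists and the named genes were chosen with earlier results of these data known. Named were the 10 genes, list genes called in a comparison, otherwise at most 5 of each list with the smallest p, and the genes most like each of the 10. The fit was tested on simulated data. Alternatives were DESeq2 1.42.0, limma-voom (limma 3.58.1), RLE factors, scaling to 3 housekeeping genes, fits of just the compared groups, pooling of all 6 E14.5 controls, the replicate block, a fit without batch terms, filters that were absent or stricter (10 counts or more in 3 libraries, mean 50) and the omission of each library. Samples with the same replicate number deviated together at E14.5 (lowest correlation of deviations 0.319 over 6517 genes with a mean of at least 20 CPM) and not at E12.5 (-0.11) or between NICD and control (-0.23), so the pairing comes from the numbers and these data. Nothing states that libraries came from separate embryos in every Rbpj group, so p-values measure the spread between these libraries. Exons overlap those of another gene for Yap1, Tead2 and Ctgf on the opposite strand and for Lats2 on the same strand, and unstranded counting cannot separate these. Promoters are from RefSeq, GRCm38.p6. Of the genes this rule names, 1 is not reported here.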

Additional observations from a re-analysis of the deposited data

Results flagged for a closer look

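In a group of 5, a library stood apart where its gap to the nearest other exceeded 0.71 of the range. For normally distributed values chance gives this in about 1 of 20 groups. CPM values were used as they were, and in NICD the SD exceeded the mean for Ankrd1, Ctgf and Lats2. Of 10 genes examined in NICD, 3 were marked. The share over all genes was not computed, so this count is not set against that rate. Yap1 was at 84.4 CPM in replicate 4, with the next library at 51.4 CPM. Ankrd1 was at 19.4 CPM in replicate 4, with the next at 0.0153 CPM. Lats2 was at 34.7 CPM in replicate 5, with the next at 10.1 CPM.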

How the results depend on the processing

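The count of members called was 0 in all 9 comparisons and under all alternatives but 1, DESeq2 for NICD against E12.5 controls, which called 1 (Amotl2). It was 0 to 0 when each library was left out and 0 with the replicate block, which changed no other member call.

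Of the log2 fold changes printed, these changed sign, none of them called. For NICD against E14.5 controls, Wwtr1 became -0.16 with limma-voom, -0.16 without NICD replicate 1 and -0.21 without NICD replicate 2 (leaving out 1 library, -0.21 to 0.25). Tead1 became -0.00027 without NICD replicate 2 (to 0.51), and Cyr61 0.064 without control replicate 2 (from -0.85). Ctgf became 0.092 with no batch terms, 0.42 with only the groups compared and 1.08 without control replicate 3 (from -1.80). For E14.5 against E12.5 controls, Wwtr1 became -0.0020 over controls and cKO together, and Cyr61 -0.0039 with housekeeping scaling, -0.093 with no batch terms, -0.20 with the replicate block, -0.46 without E12.5 control replicate 3 and -0.47 without E14.5 control replicate 2 (to 0.46). For E14.5 PLET1+ cKO, Cyr61 became 0.28 without control replicate 2 and 0.11 without cKO replicate 1 (from -1.07). The causes were not tested.

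Among the called list genes, Ccdc80 kept its call in all 17 alternatives, Ccn4 in 16 of 17, Tagln in 15, Rbms3 in 12, Ajuba in 11, F3 in 8 and Fat1 in 7. For Vgll2 the losses are those given in the Results. Ccn4 between ages kept it in 10 of 16, with adjusted p from 8.5e-08 to 0.174. Rassf1 and Ajuba against E14.5 controls were called in 5 of 18 alternatives each. Fat1 between ages was called in 3 of 16, with DESeq2, with the replicate block and over controls and cKO together.

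Counts over all genes moved more. NICD against E14.5 controls called 131 genes (51 higher, 80 lower), against 1236 with DESeq2, 998 with limma-voom, 677 with no filter, 682 with all 6 E14.5 controls, 79 with the replicate block, 17 with only the groups compared and 31 (without control replicate 3) to 172 (without NICD replicate 1) on leaving out a library. Housekeeping scaling called 413 (325 higher, 88 lower) and moved the median of all genes from 0.035 to 0.38, from 0.17 to 0.40 for NICD against E12.5 and from 0 to -0.36 for Rbpj cKO at E12.5. E14.5 against E12.5 called 185, against 1291, 448 and 519 with the first 3 of these, 984 over controls and cKO together, 1 with only the groups compared and 95 (without E14.5 control replicate 2) to 141 without a library, and housekeeping scaling changed 159 higher and 26 lower to 108 and 38. NICD against E12.5 called 538 (314 higher, 224 lower), against 2285, 1500, 1129, 325 with only the groups compared and 316 (without E12.5 control replicate 3) to 561 without a library, and housekeeping scaling gave 373 and 150. Rbpj cKO at E12.5 called 5, against 318, 0, 52, 0 with housekeeping scaling, no batch terms or only the groups compared, 2 with the replicate block and 0 (without cKO replicate 2, for example) to 9 (without cKO replicate 3) without a library. With no filter, PLET1+ against PLET1- called 16, cKO at E14.5 10 and 15 and the interactions 6 and 24, and DESeq2 called 107 and 193 for the interactions. Counts were lowest for Ankrd1, Ctgf and Tead3.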
